A study of Homo sapiens with 6 samples.

Results

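NEAT1, MALAT1, NONO, SFPQ and PSPC1 were grouped by name, not by any measured value. They are the scaffold RNA of paraspeckles, its genomic neighbour that marks nuclear speckles, and the 3 core paraspeckle proteins. Of these 5 genes, 4 were analysed among 26852 genes with a symbol, of which 21633 had reads. MALAT1 was not analysed here. The 4 genes had 7 RefSeq transcript entries with reads, and each gene was represented by its most read entry.

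Paraspeckles are nuclear bodies that form on NEAT1, a long noncoding RNA made from 1 promoter in a short polyadenylated form and a long form. The long form is the scaffold, and its 3′ end is cut by RNase P and capped by a triple helix instead of a poly(A) tail, as in MALAT1. SFPQ, NONO and PSPC1 belong to the DBHS family of RNA-binding proteins, pair with each other and bind NEAT1 in these bodies. SFPQ and NONO also act in splicing, transcription and DNA repair across the nucleus.

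RNA was sequenced from U2OS 2-6-3 cells, a clone of a human osteosarcoma line with a chromosomal reporter array that holds tet operators and MS2 loops. There were 3 groups of 2 libraries, and every culture had doxycycline-free serum and white light overnight. Untransfected cells received no plasmid. Mock cells carried TetR-RFP with YFP. Sample cells were given plasmids for CIBN-TetR, for PHR-YFP-VP16 and for mCherry-MCP. Under blue light PHR binds CIBN, which recruits VP16, a viral activation domain, to the tet operators. No group received the transfection reagent without plasmid, so the reagent, the DNA and its products cannot be told apart against untransfected cells. The plasmids of mock and sample cells differ in more than the activator.

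Reads summed over entries ranged from 44594507 to 54177551 in 5 libraries and were 9579278 in the shallower sample library. The deposited tables do not tie the libraries to replicate numbers, so the deeper library of a group is called a and the shallower b. Between libraries a and b, the SD of the log2 difference over 12580 genes was 0.17 in untransfected, 0.21 in mock and 0.41 in sample cells. No label says that the libraries of a group came from separate cultures. The p-values therefore cover the spread between these libraries, which may be technical. Normalized counts of the mesenchymal marker VIM ran from 37916 to 50551, and SPARC, FN1 and COL1A1 were also abundant. FN1 had 7618 and 7690 in untransfected libraries and 18243.5 to 22267 in transfected ones. SPARC had 32105 and 32524 in untransfected libraries and 20287 to 21324 in transfected ones. COL1A1 had 6084 and 14744 in sample libraries a and b. The bone markers SP7, COL1A2 and BGLAP were at 40.9 or below. The bone marker ALPL had 57.5 and 68.9 in untransfected libraries, 760 and 866 in mock libraries and 538 and 653 in sample libraries. RUNX2, a regulator of bone cell fate, had 381 and 417, 66.3 and 63.8, and 92.8 and 131 in the same order. FN1, SPARC, ALPL and RUNX2 differed between untransfected and transfected cells, without overlap, and their part in the results was not tested. Of 6 markers of blood, epithelium and liver, CD3E was at 0 and ALB and PTPRC were at 13.1 or below in every library. EPCAM ran from 46.3 to 192 and CDH1 from 37.0 to 62.8. The 6 markers summed to 229 to 253 in untransfected, 89.7 to 154 in mock and 98.6 to 129 in sample cells, and their part in the results was not tested. The reporter sequence ECFP-SKL ran from 26.6 to 63.5 in the first 2 groups and from 23706 to 24707 in sample cells.

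NEAT1 lies on chromosome 11 of GRCh38 (hg38), plus strand, and GENCODE 29 classes it as a lincRNA. Its long entry covers chr11:65422798-65445540, a single exon of 22743 bases. Its short entry covers the first 3735 bases, chr11:65422798-65426532. The ends of the 2 forms are shown because the forms differ in their 3′ ends. They are printed 5′ to 3′ on the plus strand from the GENCODE 29 transcript. At the short end, capitals mark AATAAA, the core poly(A) signal, and TGTA, which as UGUA is the motif bound by the cleavage factor made of NUDT21 with CPSF6 or CPSF7. At the long end, capitals mark 2 T-rich stretches and the A-rich end, the parts known to form the triple helix.
NEAT1 short end, chr11:65426388-65426547: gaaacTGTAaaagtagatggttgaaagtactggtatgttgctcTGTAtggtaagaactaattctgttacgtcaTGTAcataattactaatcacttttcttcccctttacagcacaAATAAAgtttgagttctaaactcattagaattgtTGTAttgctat
NEAT1 long end, chr11:65445421-65445540: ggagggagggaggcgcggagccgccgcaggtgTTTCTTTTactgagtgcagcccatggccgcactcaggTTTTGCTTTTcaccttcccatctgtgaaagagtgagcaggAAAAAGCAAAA
Only the transcript strand was searched, and the motifs do not overlap. In the short-end window, AATAAA occurred 1 time, starting 29 bases before the last base of the short form, and 5.63% of 142 windows of the same length along the long form held it. TGTA occurred 4 times in the window, 3 of them before and 1 after the short end. Along the long form it occurred 141 times, and 60.6% of the windows held it at least 1 time. The share of windows that held it 4 times or more was not computed. A match is only a run of letters and not a measured site.

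NEAT1 fell in sample against untransfected cells, and its level in mock cells was lower than in untransfected cells without passing the test. In bulk RNA, a change in some of the cells and a smaller one in all of them cannot be told apart. Its long entry stood at 869 and 785 normalized counts in untransfected libraries a and b. In mock libraries a and b it stood at 784 and 625. In sample libraries a and b it stood at 653 and 526. Every transfected library lay below both untransfected ones, the deeper mock library by less than 1 normalized count. Mock and sample cells overlapped. Group means were 827 ± 59.2, 705 ± 112 and 589 ± 89.5 (SD, n = 2), so sample cells held 0.713 and mock cells 0.852 of the untransfected level. Each step in this order, from untransfected to mock and from mock to sample cells, was smaller than the gap between the 2 mock libraries.

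In sample against untransfected cells, the authors' deposited table gave NEAT1 a log2 fold change of -0.44 (SE 0.18), with a DESeq2 adjusted p of 0.0375. In this comparison 2 of the 4 genes were called at an adjusted p under 0.05, NEAT1 and SFPQ, against 37.3% of 15567 genes tested. In mock against untransfected cells, the authors' deposited table gave NEAT1 -0.19 (SE 0.13, DESeq2 adjusted p = 0.209). The 95% interval around this estimate, which is shrunk toward 0, ran from -0.45 to 0.06. A log2 fold change below that of NEAT1 was found by limma-voom for 25.7% of genes in sample against untransfected cells.

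The call for NEAT1 rested on single libraries. A limma-voom fit on the recovered counts of all 6 libraries called the same 2 genes in this comparison, among 50.6% of genes called, and gave NEAT1 -0.42 with an adjusted p of 0.0362. Without sample library b it was -0.32 (limma-voom adjusted p = 0.0544), without untransfected library a -0.34 (0.170) and without untransfected library b -0.49 (0.0581). Without sample library a it was -0.65 (limma-voom adjusted p = 0.0312). Each such fit assumes that the library left alone in its group varies as the other groups do. The value of shallow library b rests on 128 reads, with an exact Poisson interval of 439 to 625 normalized counts, which covers counting error only.

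**Figure D1:**
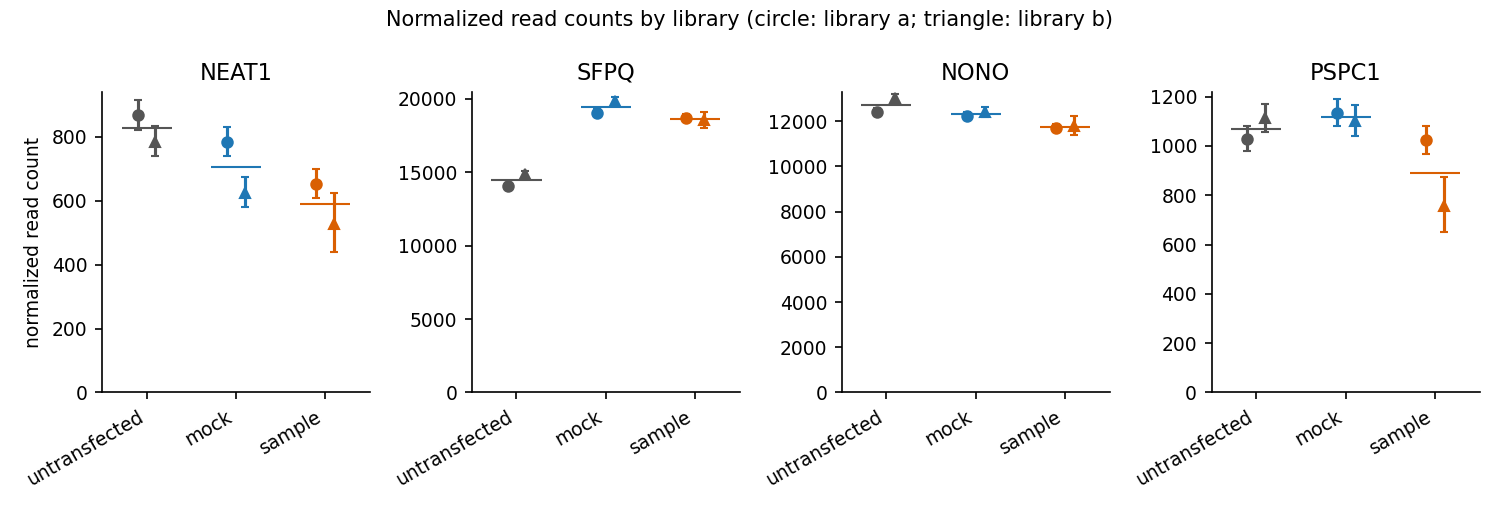
Normalized read counts of NEAT1, SFPQ, NONO and PSPC1 in untransfected, mock and sample cells, with circles for library a, triangles for library b, lines for group means and bars for exact 95% Poisson intervals of each library. NEAT1 sits highest in the untransfected libraries, at 869 and 785, and SFPQ sits at 18545 or above in all transfected libraries against at most 14885 in untransfected ones.

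**Figure D2:**
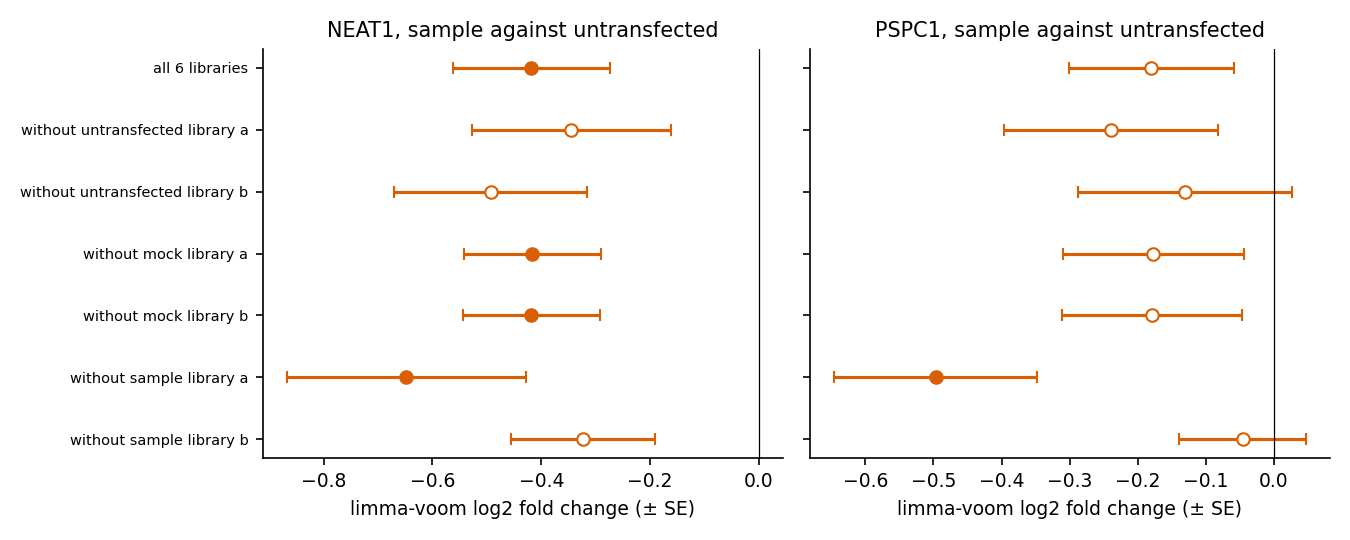
Log2 fold changes of NEAT1 and PSPC1 in sample against untransfected cells from limma-voom, with bars of 1 SE, for all 6 libraries and with each library left out; filled points have an adjusted p under 0.05. NEAT1 stays below 0 throughout, between -0.65 and -0.32, while its call is lost in 3 of the 6 fits.

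The short NEAT1 entry, read alone, was not called in any comparison. It stood at 397 and 277 normalized counts in untransfected libraries, 343 and 276 in mock libraries and 295 and 251 in sample libraries a and b. The 3 groups overlapped, and the untransfected pair was the widest apart. Its log2 fold change in the authors' deposited table was -0.26 for sample against untransfected cells (SE 0.25, DESeq2 adjusted p = 0.459). For mock against untransfected cells the authors' deposited table gave -0.09 (SE 0.19, DESeq2 adjusted p = 0.738).

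Both forms share their first bases, so reads of the short entry can belong to either form, and how reads shared by entries were counted is not given in the sources used here. Of the reads summed over both entries, the short entry held 28.7% ± 3.73 in untransfected, 30.5% ± 0.116 in mock and 31.7% ± 0.823 in sample cells (SD, n = 2). If every short-entry read was also counted in the long entry, the short entry made up 45.7% and 35.3% of the long entry's reads in the untransfected libraries. The exact 95% binomial intervals of these shares were 43.0% to 48.4% and 32.4% to 38.2%, so untransfected libraries a and b differed beyond counting error. The share was 43.7% and 44.1% in mock libraries and 45.2% and 47.7% in sample libraries, all inside the interval of untransfected library a.

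On the same assumption, the remaining 19008 bases, which belong to the long form alone, held 472 and 508 normalized counts in untransfected libraries, 441 and 350 in mock libraries and 358 and 275 in sample libraries a and b. Every transfected library lay below both untransfected ones on this stretch, and sample and mock cells overlapped. The mean for the stretch in sample cells was 0.646 of the untransfected mean, against 0.809 for the short entry. Whether these ratios differ was not tested. Per kilobase of length, the short stretch held 67.1 to 106 normalized counts and the rest of the long form 14.5 to 26.7. The long form has no poly(A) tail, and whether poly(A) RNA was selected is not given. Its part in these densities was not tested.

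**Figure D3:**
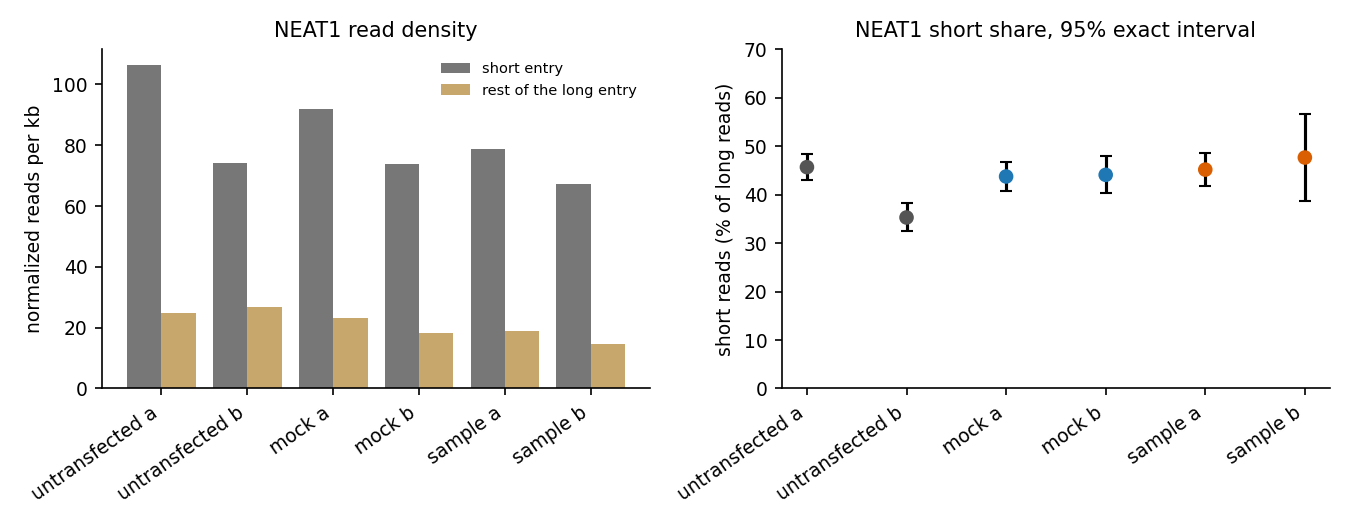
Left, normalized reads per kilobase over the short NEAT1 entry and over the rest of the long entry in each of 6 libraries; right, reads of the short entry as a percentage of reads of the long entry, with exact 95% binomial intervals that cover counting error only. The short stretch is 2.77 to 4.63 times as dense as the rest in every library, and untransfected library b has the lowest percentage, 35.3%.

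SFPQ rose with both transfections. This protein is the largest of the DBHS family, and loss of it removes paraspeckles. Its entry lies on the minus strand of chromosome 1, at chr1:35183600-35193142, and is protein-coding in GENCODE 29. SFPQ stood at 14064 and 14885 normalized counts in untransfected libraries a and b. In mock libraries it stood at 19047 and 19873, and in sample libraries at 18696.5 and 18545. No transfected library came near an untransfected one, and the sample libraries lay just below the mock libraries. Group means were 14474 ± 581, 19460 ± 584 and 18621 ± 107 (SD, n = 2), so SFPQ was 1.34 times as high in mock and 1.29 times as high in sample as in untransfected cells.

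In mock against untransfected cells, the authors' deposited table gave SFPQ a log2 fold change of 0.46 (SE 0.066, DESeq2 adjusted p = 2.2e-11). SFPQ was the only one of the 4 genes called there, in a comparison where 50.9% of 17093 genes tested were called. In sample against untransfected cells, the authors' deposited table gave it 0.37 (SE 0.093, DESeq2 adjusted p = 0.000337). By limma-voom, 48.9% of genes had a smaller absolute log2 fold change than SFPQ in mock against untransfected cells, so its rise was near the middle of all genes in size. SFPQ was again the only one of the 4 called by limma-voom, which called 59.0% of genes in mock against untransfected cells. It was called in every setting tried for both comparisons. Its second entry, chr1:35176378-35193145, is noncoding in RefSeq and held 80.1 to 81.3 reads per 100 of the main entry in every library, with no order by group.

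NONO, the partner that pairs with SFPQ and PSPC1, was not called against untransfected cells in the authors' deposited tables. Its entry lies on the plus strand of the X chromosome, at chrX:71283192-71301168, with 10 exons that sum to 2882 bases in GENCODE 29. It stood at 12407 and 13009.8 normalized counts in untransfected libraries, 12234 and 12409 in mock libraries and 11701 and 11806 in sample libraries a and b. Untransfected and mock cells overlapped by a narrow margin, and both sample libraries lay below all others. Group means were 12708 ± 426, 12322 ± 123 and 11754 ± 73.7 (SD, n = 2).

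In mock against untransfected cells, the authors' deposited table gave NONO -0.01 (DESeq2 adjusted p = 0.894), with a 95% interval of -0.14 to 0.11. In sample against untransfected cells, the authors' deposited table gave -0.10 (DESeq2 adjusted p = 0.433), with a 95% interval of -0.28 to 0.08. With library totals in place of median-of-ratios sizes, NONO was called lower in both, at -0.17 (limma-voom adjusted p = 0.0317) and -0.23 (0.0150). That scaling moved the log2 fold changes of all genes by a median of -0.13 in mock and -0.11 in sample against untransfected cells.

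The ratio of 2 genes within a library does not depend on scaling. SFPQ held 1.13 and 1.14 normalized counts per count of NONO in untransfected libraries. In mock libraries the ratio was 1.56 and 1.60, and in sample libraries 1.60 and 1.57. The transfected groups overlapped each other and lay far above the untransfected pair. Group means were 1.14 ± 0.0075, 1.58 ± 0.032 and 1.58 ± 0.019 (SD, n = 2). For every 100 counts of SFPQ, the long NEAT1 entry held 6.18 and 5.27 in untransfected libraries, 4.12 and 3.15 in mock libraries and 3.49 and 2.84 in sample libraries. Transfected and untransfected libraries did not overlap in this ratio of scaffold RNA to protein message. Per kilobase of exon, normalized counts in untransfected cells were 4410 ± 148 for NONO and 36.4 ± 2.60 for NEAT1 (SD, n = 2). Reads of NONO were thus far denser than those of NEAT1. Long NEAT1 has no poly(A) tail, and whether poly(A) RNA was selected is not given in the sources used here. How far library preparation lowered the reads of NEAT1 was not tested. NONO and SFPQ have processed pseudogenes in GENCODE 29, and how reads that fit several places were counted is not given in the sources used here.

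PSPC1, the DBHS protein that is not needed for paraspeckles to form, was not called in any comparison. The entry with the most reads is noncoding in RefSeq, lies on the minus strand of chromosome 13 at chr13:19674752-19783019, and overlaps the antisense gene PSPC1-AS2 at its 3′ end. The library kit keeps strand, but whether counting used it is not given, so reads of that overlap cannot be told apart. PSPC1 stood at 1029 and 1112 normalized counts in untransfected libraries, 1135 and 1101 in mock libraries and 1023 and 756 in sample libraries a and b. Sample library b stood apart below the other 5 libraries, which spanned 1023 to 1135. Group means were 1070.2 ± 58.4, 1118 ± 24.1 and 889 ± 189 (SD, n = 2).

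In mock against untransfected cells, the authors' deposited table gave PSPC1 0.10 (SE 0.10, DESeq2 adjusted p = 0.454). In sample against untransfected cells, the authors' deposited table gave -0.22 (SE 0.18, DESeq2 adjusted p = 0.340), with a 95% interval of -0.57 to 0.12. Without sample library b the limma-voom estimate was -0.045 (adjusted p = 0.704), and without sample library a it was -0.50 (adjusted p = 0.0180). Library b held 184 reads of PSPC1, with an exact Poisson interval of 651 to 874 normalized counts. The coding entry, chr13:19702867-19783019, held 97.3 to 100.1 reads per 100 of the main entry, so the 2 entries gave nearly the same values.

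**Figure D4:**
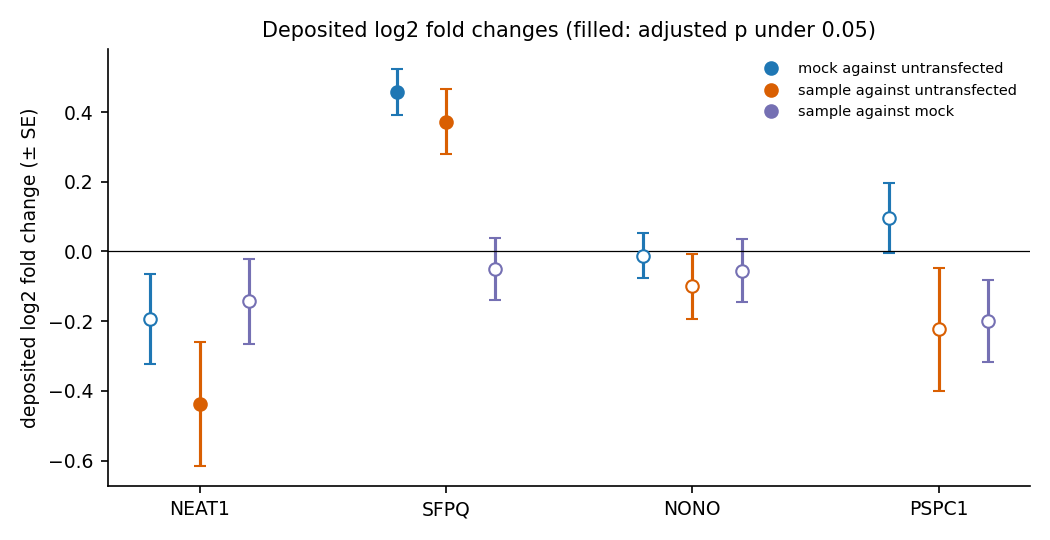
Log2 fold changes of NEAT1, SFPQ, NONO and PSPC1 in the authors' deposited tables for the 3 comparisons, with bars of 1 SE; filled points have an adjusted p under 0.05. SFPQ is filled at 0.46 and 0.37 against untransfected cells, NEAT1 at -0.44 in sample against untransfected cells, and no point is filled for sample against mock cells.

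Sample against mock cells is the test of the light-controlled activator plasmids against control plasmids. None of the 4 genes was called there by DESeq2 in the authors' deposited table or by limma-voom, and none had an unadjusted p under 0.05 by either. DESeq2 called 0.0785% of 15287 genes tested, and limma-voom 0.0134%. For the 4 genes the authors' deposited table gave -0.14 (SE 0.12) for NEAT1, -0.05 (SE 0.089) for SFPQ, -0.05 (SE 0.090) for NONO and -0.20 (SE 0.12) for PSPC1, as log2 fold changes. The 95% intervals from the authors' deposited table ran from -0.38 to 0.10 for NEAT1 and -0.22 to 0.12 for SFPQ. They ran from -0.23 to 0.12 for NONO and -0.43 to 0.03 for PSPC1. These intervals lie around estimates shrunk toward 0, so they do not exclude larger changes. Log2 ratios of the group means, which are not shrunk, were -0.26 for NEAT1, -0.06 for SFPQ, -0.07 for NONO and -0.33 for PSPC1. Without sample library a, PSPC1 was called at -0.57 by limma-voom (adjusted p = 0.0475), on the 184 reads of library b. The comparisons share libraries: both against untransfected cells use the same untransfected pair, and both with sample cells use the same sample pair.

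Groups did not overlap for 2 of the 4 genes in mock against untransfected cells, for 4 in sample against untransfected cells and for 3 in sample against mock cells. Over 14893 genes with a mean of at least 10, the shares without overlap were 82.4%, 74.5% and 34.2% in the same order. With 2 libraries a group, most genes were separated in this way against untransfected cells.

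Messages of other proteins found in paraspeckles rose for the most part in mock cells, while in sample cells most were not called. Of 33 such genes, 24 rose and 2 fell in the authors' deposited table for mock against untransfected cells, with a median log2 fold change of 0.31, against 27.5% higher and 23.3% lower and a median of -0.0038 over all genes tested. For sample against untransfected cells the authors' deposited table had 12 that rose and 1 that fell, with a median of 0.24, against 20.2% higher, 17.1% lower and a median of -0.0027 over all genes. In sample cells the share of the list called was 39.4%, near the 37.3% of all genes. By limma-voom the list had 18 higher and 2 lower in mock cells, or 60.6% called against 59.0% of all genes. With library totals it had 10 and 3, or 39.4% against 56.1%, and 11 to 26 were called when single libraries were left out. In sample cells it had 14 higher and 3 lower by limma-voom, or 51.5% against 50.6%, and 6 and 3 with library totals, or 27.3% against 47.2%. By limma-voom the share called was thus near that of all genes, and below it with library totals.

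RBM14, which holds paraspeckles together through its prion-like domain, rose by 0.85 and 0.95 in the authors' deposited tables for mock and sample against untransfected cells.

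HNRNPF (0.68) and ZNF335 (0.64) followed in the authors' deposited table for mock cells, on the log2 scale used for all list genes. TARDBP, the message of TDP-43, rose by 0.55 in mock and 0.76 in sample cells in the authors' deposited tables. In sample cells its call was lost by limma-voom with library totals (adjusted p = 0.0516). TARDBP stood at 1585 and 1369 normalized counts in mock libraries, and at 1388 and 2182 in sample libraries a and b. CIRBP, a cold-inducible RNA-binding protein, fell, as did FIGN in mock cells (-0.56 in the authors' deposited table; named after its value was seen). CIRBP had 967 and 878 normalized counts in untransfected libraries, 684 and 699 in mock libraries and 638 and 489 in sample libraries. Its transfected libraries were all lower than its untransfected ones, and the authors' deposited tables gave -0.38 and -0.65 (DESeq2 adjusted p = 0.00185 and 0.00159). In sample against mock cells the 2 most abundant, HNRNPF and HNRNPK, had -0.12 and -0.06 in the authors' deposited table, with no member of the list called by DESeq2 or limma-voom. An unadjusted p under 0.05 was found for TAF15 and RBM3 by DESeq2 and for RBM3 by limma-voom, genes named after their values were seen.

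Factors linked to the 2 ends of NEAT1 were read beside the sequences above. NUDT21, CPSF6 and CPSF7, of the cleavage factor that binds UGUA, and HNRNPK, which works against it on NEAT1, were chosen after their values were seen. They rose by 0.17, 0.19, 0.54 and 0.23 in the authors' deposited table for mock against untransfected cells (DESeq2 adjusted p = 0.0284, 0.0349, 2.34e-06 and 0.000579). Over all genes tested in that comparison, 50.9% were called and the median absolute log2 fold change was 0.42. Scaling by library totals moved the log2 fold changes of all genes there by a median of -0.13. Only CPSF7 was called in the authors' deposited table for sample against untransfected cells, at 0.64 (DESeq2 adjusted p = 0.0012). NUDT21, CPSF6 and HNRNPK were at 0.14 each, and 37.3% of all genes were called in this comparison.

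The RNase P subunits and the RNase Z ELAC2 act on the long end and its small tRNA-like product. METTL16, listed with them, binds the MALAT1 triple helix, and whether it acts on NEAT1 was not tested. Of 12 tested, 9 rose and none fell in the authors' deposited table for mock against untransfected cells, with a median of 0.55, against 27.5% higher and 23.3% lower over all genes. For sample against untransfected cells the authors' deposited table had 7 of 12 that rose and none that fell, with a median of 0.44, against 20.2% and 17.1% over all genes. POP1, the largest protein subunit of RNase P, stood at 1030.2 and 1002 normalized counts in untransfected libraries, 2186 and 2268 in mock libraries and 1918 and 1816 in sample libraries. The mock libraries were highest and no groups overlapped. The authors' deposited tables gave POP1 1.16 and 0.88, ELAC2 0.93 and 0.77, RPP40 0.74 and 0.71 and METTL16 0.72 and 0.66 for mock and sample against untransfected cells.

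RPPH1, the catalytic RNA of RNase P, was by far the most abundant of this list and was not called. Its libraries ran from 141454 to 322686 normalized counts, the lowest in mock and the highest in untransfected cells, with the sample pair between them. RPPH1 has no poly(A) tail, and whether poly(A) RNA was selected is not given in the sources used here. By limma-voom 8 members of the list were higher and 0 lower in mock cells, or 66.7% called against 59.0% of all genes. With library totals 8 were higher and 1 lower, or 75% against 56.1%. None was called in sample against mock cells, where an unadjusted p under 0.05 was found for POP1 by limma-voom and for none by DESeq2.

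Messages of proteins of nuclear speckles, the bodies that lie beside paraspeckles and hold MALAT1, rose for the most part. Of 22 tested, 19 rose and none fell in the authors' deposited table for mock against untransfected cells, with a median of 0.51, against 27.5% higher and 23.3% lower over all genes. The authors' deposited table for sample against untransfected cells had 14 that rose and none that fell, with a median of 0.37, against 20.2% and 17.1% over all genes. U2AF2, the large subunit of the factor that reads the 3′ splice site, stood at 5311 and 5190 normalized counts in untransfected libraries, 8680 and 9168 in mock libraries and 8571 and 8251 in sample libraries. Both transfected pairs lay above the untransfected one, and the sample pair lay just below the mock pair. For mock and sample against untransfected cells, the authors' deposited tables gave log2 fold changes of 0.79 and 0.69 for U2AF2. They gave 0.76 and 1.04 for SRRM1, 0.67 and 0.75 for RNPS1, 0.69 and 0.54 for SRSF7, and 0.59 and 0.63 for SRSF6. SRRM1 stood at 812 and 733 normalized counts in mock libraries, and at 732 and 1278 in sample libraries a and b. Its larger value in sample than in mock cells thus rested on shallow library b.

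By limma-voom 16 speckle genes were called in mock cells, all higher, or 72.7% against 59.0% of all genes. With library totals 12 were called, all higher, or 54.5% against 56.1%. In sample cells limma-voom called 14, or 63.6% against 50.6%, and 11 with library totals, or 50% against 47.2%. With library totals the share called was thus near that of all genes. U2AF1 was listed at 0 in all 6 libraries and could not be tested. Whether this value came from expression or from how reads were mapped and counted was not tested. None was called in sample against mock cells by either tool, and none had an unadjusted p under 0.05 by either. SRRM2, a speckle scaffold singled out after its values were seen, stood at 1543 in sample library a and 5449 in library b, and HNRNPH3 at 757 and 1808. Both genes lay far apart between the 2 sample libraries.

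**Figure D5:**
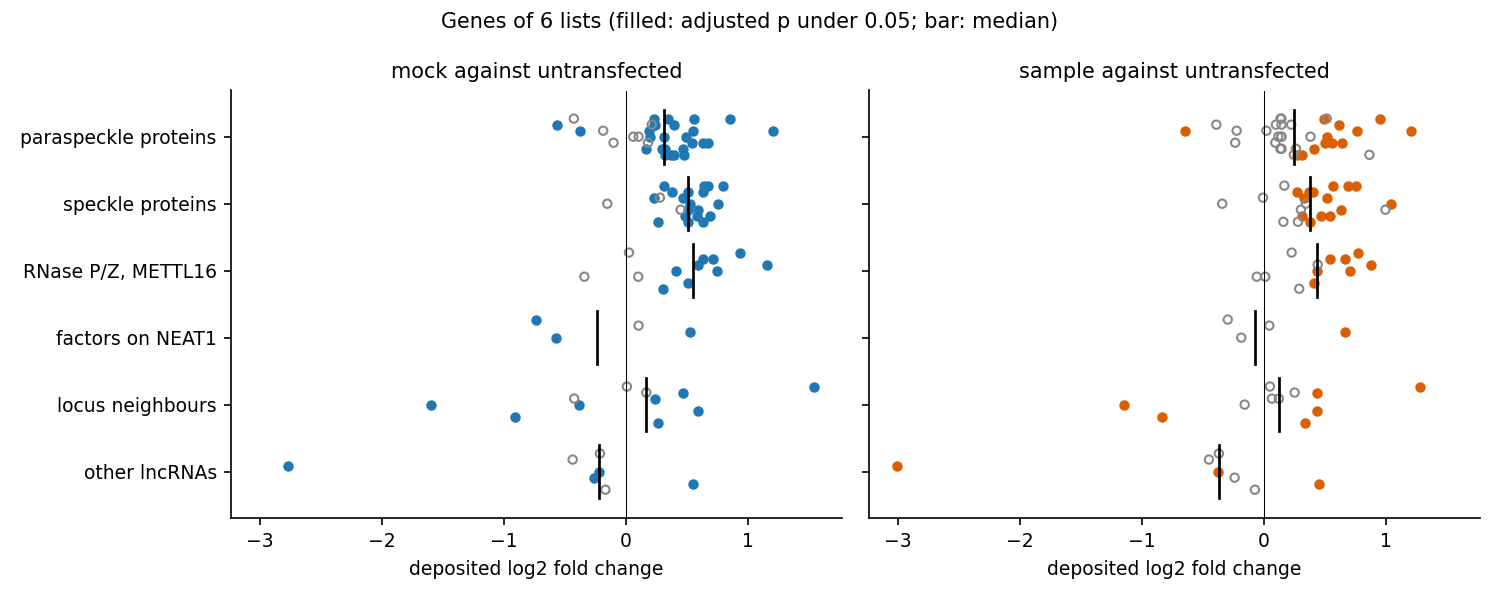
Genes of 6 lists by their log2 fold change from the authors' deposited tables, in mock and in sample against untransfected cells; each point is a gene, filled points have an adjusted p under 0.05, and bars are list medians. Speckle proteins and RNase P and Z genes lie mostly right of 0, with medians of 0.51 and 0.55 in mock cells, while the other long noncoding RNAs lie mostly left of 0.

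Genes beside NEAT1 and MALAT1 on chromosome 11 went both ways. Of 11 tested, 5 rose and 3 fell in the authors' deposited table for mock against untransfected cells, with a median of 0.17, and in the one for sample against untransfected cells 4 rose and 2 fell, with a median of 0.12. Over all genes 50.9% and 37.3% were called in these comparisons. CDC42EP2, an effector of the GTPase CDC42, stood at 250 and 262 normalized counts in untransfected libraries, 699 and 787 in mock libraries and 535 and 781 in sample libraries. It was higher in every transfected library, and the authors' deposited tables gave 1.54 and 1.28. LTBP3, which binds latent TGF-beta, stood at 320 and 276 in untransfected libraries, 160 and 144 in mock libraries and 158 and 160 in sample libraries. It was lower in every transfected library, and the authors' deposited tables gave -0.91 and -0.84. TIGD3 was low in counts, at 9.88 to 53.6, and the authors' deposited tables gave -1.60 and -1.15, while FRMD8 had 0.59 in mock cells. Other called neighbours, named after their values were seen, included EHBP1L1 and MAP3K11 (0.24 and 0.26) and FAM89B (-0.38) in mock cells, and FRMD8 and MAP3K11 (0.43 and 0.34) in sample cells, in the authors' deposited tables. By limma-voom with library totals the split in mock cells was 3 higher and 3 lower, or 54.5% called against 56.1% of all genes. With median-of-ratios sizes it was 4 and 3, or 63.6% against 59.0%. No gene of this list was called in sample against mock cells or had an unadjusted p under 0.05, by DESeq2 or limma-voom.

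Of 4 transcription factors reported to act on NEAT1, HSF1, the heat shock factor, rose by 0.52 in mock and 0.66 in sample cells in the authors' deposited tables. EPAS1 (HIF-2alpha) fell by 0.74 in mock cells in the authors' deposited table. In sample cells EPAS1 had -0.30 in the authors' deposited table (DESeq2 adjusted p = 0.318), and HIF1A was called in neither. In sample cells limma-voom called 1 higher and 1 lower, or 50% of the 4 against 50.6% of all genes. With library totals it called 1 higher and 2 lower, or 75% against 47.2%, on only 4 genes. None of the 4 was called in sample against mock cells or had an unadjusted p under 0.05, by DESeq2 or limma-voom.

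The genes most like each of the 4 in pattern were found by the Euclidean distance between centred log2 normalized counts over the 6 libraries, over the 12580 genes whose mean reached 50. For NEAT1 they were OFD1 (0.11), POTEF (0.12) and FTX (0.13), where POTEF belongs to a family of near-identical copies and is uncertain. For SFPQ they were SYT14 (0.034), TRIP12 (0.040) and TRAPPC4 (0.043). For NONO they were DCTN1 (0.037), UBXN2A (0.044) and GATD1 (0.045). For PSPC1 they were DLEU1 (0.055), AMDHD2 (0.098) and ZBTB25 (0.11). The distances are in log2 units, and the nearest neighbours of NEAT1 were farther away than those of SFPQ and NONO.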

How the data were processed

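RNA from 6 libraries of U2OS 2-6-3 cells, 2 per group by the labelled transfection, was sequenced with a directional kit, per the labels' protocols. The submitters' processing notes list DESeq2, STAR, Bowtie and hg38. Of their versions, roles and settings, the annotation and the read counting, nothing is given in the sources used here. The authors deposited 3 tables of comparisons for 40029 transcript entries. Per the file headers they hold a mean signal (normalized counts over 4 libraries), a log2 fold change with its SE (shrunk toward 0, as the values show), a Wald score, and a p-value with its adjusted p-value. The main calls are the authors' deposited DESeq2 adjusted p-values under 0.05. Intervals at 95% around deposited fold changes were computed as 1.96 SE on either side. They lie around the shrunk values, so they do not exclude larger unshrunk changes.

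Whole counts of the 6 libraries were solved from the 3 mean signals for all 30527 entries with reads, within a relative tolerance of 1e-14, and the method was tested on simulated data. They were divided by median-of-ratios library sizes over the 6 libraries and tested with voom weights in limma (limma-voom; limma 3.58.1 under R 4.3.3) on genes with a mean of at least 10, with Benjamini-Hochberg adjustment over all genes; edgeR was not run because the tables hold no raw counts. Symbols were matched for 39722 entries (99.2%) through RefSeq and GENCODE 29 tables; the rest held 0.067% of reads. Exact Poisson and binomial intervals cover counting error only, since reads without molecular identifiers are not independent molecules; the shallow sample library is the least precise.

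The members and gene lists were chosen with earlier results of these data known. Named genes are the members, up to 4 called genes of each list per comparison with the largest log2 fold change, up to 2 abundant ones where none was called, and the 3 genes nearest each member (pseudocount 1). Genes outside this rule are said to be so where named, and some genes within it are not reported here. PRPF4B and RPP14 were not analysed here, and KCNK7 and MEG3 have no adjusted p-value in the deposited tables. Alternatives changed the threshold, the adjustment, the test, library sizes, the filter, the entry and the libraries kept. Scripts ran in Python 3.11.15 with pandas 2.3.3, numpy 2.4.6, matplotlib 3.10.9 and scipy 1.17.1.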

Additional observations from a re-analysis of the deposited data

How the results depend on the processing

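Of 165 repeats of the log2 fold changes of NEAT1, SFPQ, NONO and PSPC1, 154 kept the direction and the side of the threshold. Repeats that changed only the threshold or the adjustment reused the deposited fold change, so their direction was fixed in advance. SFPQ kept its call in all 14 repeats against untransfected cells in each comparison. With library totals, 2 of the 4 genes were called in mock against untransfected cells, since NONO was then called lower at -0.17, and at -0.23 in sample against untransfected cells, where 3 genes were then called; PSPC1 turned to -0.059 in mock against untransfected cells, called in neither scaling. In sample against untransfected cells the count fell from 2 to 1 at an adjusted p under 0.01, with the other entry and with entries summed, as NEAT1 then stood at -0.44, -0.26 and -0.37 without a call (adjusted p = 0.0375, 0.459 and 0.0750; DESeq2, DESeq2 and limma-voom). The other entry was an alternative chosen after seeing the data. Leaving out single libraries gave 1 to 3 called genes in sample against untransfected and 0 to 1 in sample against mock cells. In those fits NEAT1 ran from -0.65 to -0.32 in the former, and PSPC1 from -0.50 to -0.045 in the former and from -0.57 to -0.13 in the latter. The cause of these shifts was not tested.

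Repeats of list counts and named list genes were also chosen after seeing the data, and none of them reversed. Starting counts are deposited DESeq2 calls, while library totals and left-out libraries used limma-voom, so these moves include the change of test. With all 6 libraries in mock against untransfected cells, limma-voom called 20 paraspeckle, 16 speckle, 7 neighbour and 5 other long noncoding genes. In sample against untransfected cells it called 17 paraspeckle genes. The list of paraspeckle proteins moved most, from 26 called in mock against untransfected cells to 13 with library totals and 11 to 26 with single libraries left out, and from 13 to 21 in sample against untransfected cells without sample library b. Without sample library a it had 8 called in sample against mock cells, where 5.66% of all genes were called; speckle proteins and transcription factors had 3 each, against 0 in the deposited table. In mock against untransfected cells speckle proteins went from 19 called to 12 with library totals and 12 without untransfected library b, neighbours from 8 to 5 without untransfected library b, mock library a or mock library b, and other long noncoding RNAs from 4 to 2 at an adjusted p under 0.01 and without untransfected library b. In sample against untransfected cells neighbours went from 6 to 3 at an adjusted p under 0.01, other long noncoding RNAs from 3 to 5 with library totals, and transcription factors from 1 to 2 or 3 by limma-voom. Among others, calls for SRRM1, HSF1, OIP5-AS1 and NORAD in mock cells, and for TARDBP, TIGD3, PVT1 and NORAD in sample cells, were lost by limma-voom in at least 1 setting. The share of the short NEAT1 entry was 40.5%, 43.9% and 46.4% of long-entry reads against 28.7%, 30.5% and 31.7% of the sum. No paired analysis was possible because the deposited columns carry no replicate numbers and the recovered libraries cannot be tied to them. Depth limits sample library b most, where NEAT1 rests on 128 reads and PSPC1 on 184.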

Other observations

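Other long noncoding RNAs were read beside NEAT1. Of 7 tested, 1 rose and 3 fell in the authors' deposited table for mock against untransfected cells, with a median log2 fold change of -0.22, and in the one for sample against untransfected cells 1 rose and 2 fell, with a median of -0.37. The shares called, 57.1% and 42.9%, lay near the 50.9% and 37.3% of all genes. MIAT, a nuclear RNA with its own domains in neurons, stood at 482 and 461 normalized counts in untransfected libraries, 73.4 and 50.9 in mock libraries and 54.6 and 28.8 in sample libraries a and b. Every transfected library held far less than both untransfected ones, and the authors' deposited tables gave -2.77 and -3.01. NORAD, a cytoplasmic RNA that binds Pumilio proteins, had -0.22 and -0.38 in the authors' deposited tables (DESeq2 adjusted p = 0.0159 and 0.00479).

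PVT1, the neighbour of MYC, went the other way at 0.55 and 0.45 in the authors' deposited tables. OIP5-AS1 was called in mock cells at -0.27 in the authors' deposited table. In sample against mock cells none of the 7 was called, and none had an unadjusted p under 0.05, by DESeq2 or limma-voom. By limma-voom the list had 1 higher and 2 lower in sample cells, or 42.9% called against 50.6% of all genes. With library totals it had 1 higher and 4 lower, or 71.4% against 47.2%.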
